A study of Oryzias latipes with 27 samples.

Results

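The fibroblast growth factor (FGF) genes of medaka (Oryzias latipes), with the FGF receptors and the genes of the Sprouty and Spred names, were followed through gonad development. They were chosen by name, as every gene symbol of the deposited tables that starts with fgf, spry or spred, which gave 31 of 26099 genes. By role they are 14 secreted ligands, 3 FGF-like proteins that stay in the cell (fgf11, fgf13, fgf14), 3 receptors (fgfr1, fgfr2, fgfr3), 3 FGF-binding proteins, 1 Sprouty (spry4) and 3 Spreds. The 4 others share only the letters: spryd4 and spryd7 carry a SPRY domain and are not Sprouty proteins, and fgfr1op and fgfr1op2 were named in human for fusions with FGFR1. FGF genes that the annotation lists under other symbols were not analysed here.

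The study compared gonads at 10, 30 and 120 days post hatch (D10, D30, D120) in 3 kinds of fish, with 3 poly(A) RNA-seq libraries in each of the 9 groups. WT_Fe_Ov is the ovary of wild-type XX females, WT_Ma_Te the testis of wild-type XY males, and MT_Fe_Ov the ovary of XY fish that develop as females because a TALEN-made mutation disables DMY, the male-determining gene on the Y chromosome. The mutation is held as an inherited line, and DMY itself was not analysed here, so the mutation could not be checked from these values. Libraries of D10 hold the gonadal primordium with the trunk tissue around it, head and tail removed, whereas later libraries hold the dissected gonad.

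FGF ligands signal by binding receptor tyrosine kinases at the cell surface, with heparan sulfate as a helper, and the receptors act mainly through the Ras and MAPK kinase cascade. Sprouty and Spred proteins are inhibitors of that cascade that the signal itself often induces, so they are commonly used as a readout of it. In the mouse, Fgf9 acting through Fgfr2 is needed for testis formation, and fgf16, fgf20a and fgf20b are the medaka symbols of the same subfamily in these tables.

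Totals were 5551651 to 17586392 counts per library, so 3 counts amounted to 0.540 CPM (counts scaled by the library total) in the smallest. Oocyte markers summed to 1475 to 1906 FPKM in the D30 ovaries against 56.1 to 65.7 in the D30 testes, and to 1543 to 1624 against 12.2 to 14.1 at D120. Markers of testis somatic cells summed to 2172 to 2388 FPKM in the D30 testes against 45.3 to 160.2 in the D30 ovaries, so the labels fitted the tissue at D30 and D120. At D10 skeletal muscle markers stood at 5602 to 14030 FPKM, against at most 17.9 in any later library, and gonadal markers were low. The D30 testes held more of the exocrine pancreas marker cpb1 than the D30 ovaries (349.4 to 416.9 against 0.263 to 131.7 FPKM), and more skeletal muscle (15.2 to 17.9 against 0.336 to 5.93) and neural markers (19.8 to 21.3 against 4.44 to 5.74). Library MT_Fe_Ov replicate 2 of D30 had a sum of 160.2 for testis somatic markers against 45.3 and 53.8 in the other 2 of its group. Library WT_Ma_Te replicate 3 of D120 had a sum of 98.9 for kidney markers against 1.57 and 1.71. The part of these tissues in the values below was not tested. The D30 testes were also sequenced with shorter reads than the other libraries, and read length and tissue at D30 cannot be told apart.

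Among the gonads of D30 and D120, most of these genes were highest in the D30 testis. A mean of at least 1 FPKM (fragments per kilobase of transcript, scaled by the library total) was reached by 20 of the 31 genes in the D30 testis but by only 8 in WT_Fe_Ov and 9 in MT_Fe_Ov of that stage. At D120 the numbers were 10 in testis and 9 in each kind of ovary, and at D10 they were 24, 26 and 23. Over the 6 groups of D30 and D120, 22 of the 31 had their highest mean FPKM in the D30 testis. On FPKM rescaled by TMM factors (a scaling in which most genes are taken as unchanged) 20 did. TMM factors were 1.487 to 1.497 in the D30 testes and 0.740 to 0.802 in the D30 ovaries. Rescaling so lowered the D30 testis values and raised the D30 ovary values. Fewer than 20 genes then reached 1 FPKM in the D30 testis. There fgf4 (at most 0.867) and fgf6 (at most 0.813) fell under it in all 3 libraries. Genes fgf13 (0.827 to 1.12) and fgfbp3 (0.739 to 1.08) did so in part of them. In the D30 ovaries fgfbp3 then stood at 0.884 to 1.46 in WT_Fe_Ov and spred1 at 0.763 to 1.85 in MT_Fe_Ov. The numbers of genes at 1 FPKM were not recounted in full on that scale. The matching counts over all genes were not made, so whether these counts are particular to the family was not tested.

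**Figure D1:**
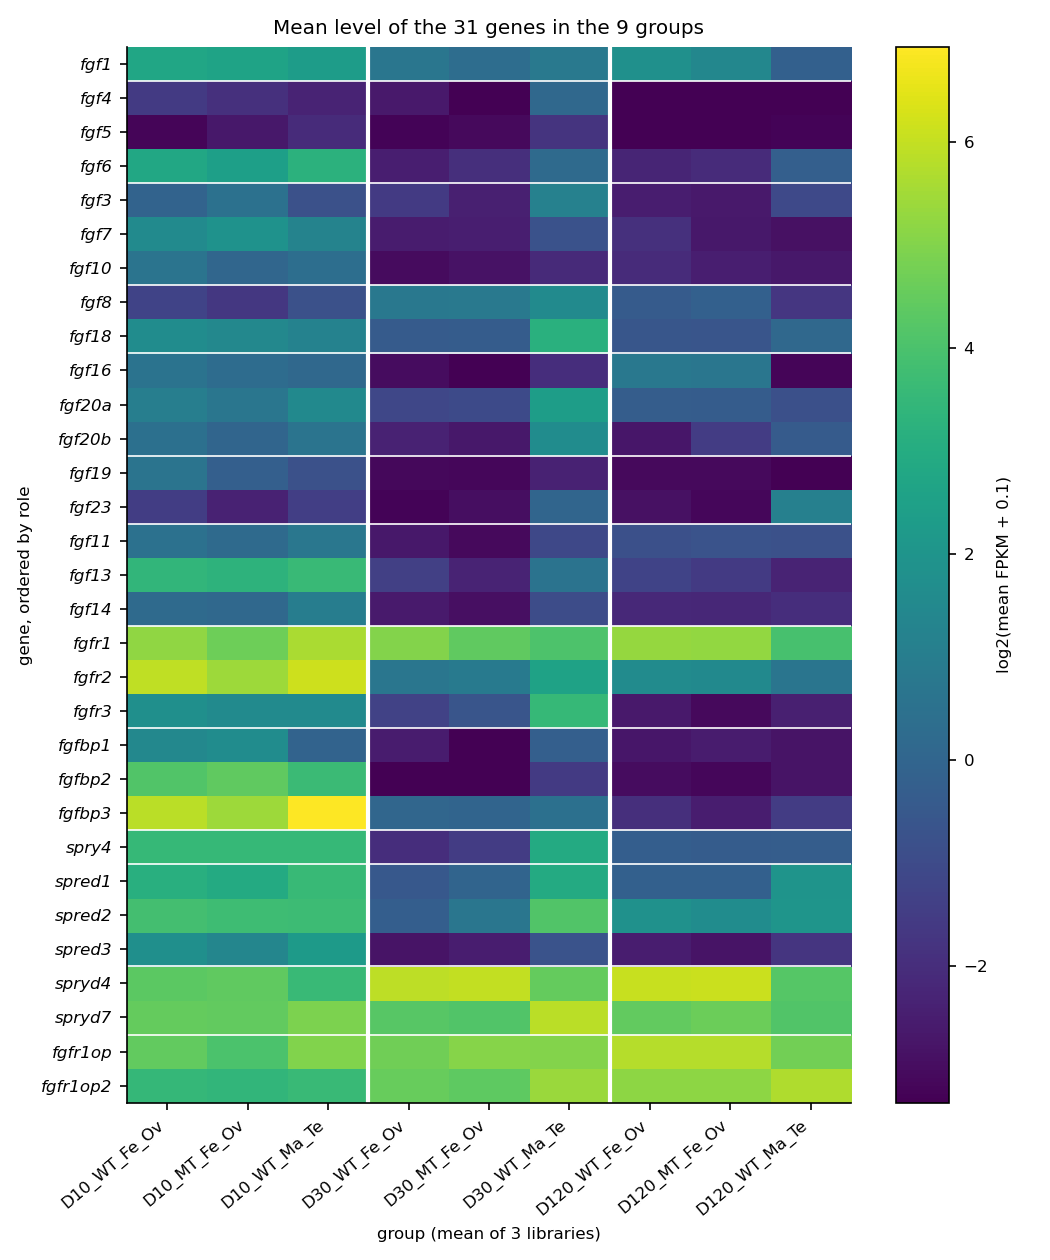
Mean level of the 31 genes in each of the 9 groups, as a heatmap of log2(mean FPKM + 0.1) with genes as rows by role and groups as columns by stage (3 libraries per group). In the D30 testis column 20 genes have a mean of 1 FPKM or more, against 8 and 9 in the D30 ovary columns, on FPKM scaled by library totals.

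At D30, ovary (WT_Fe_Ov and MT_Fe_Ov, 6 libraries) was compared with testis (3 libraries). Of the 31 members, 20 (64.5%) were higher in testis, where 36.5% of all 25349 genes tested were, and 2 (6.45%) were higher in ovary, where 22.0% of all genes were. A call here needs a log2 fold change of at least 1 in size and a Benjamini-Hochberg adjusted p, over all genes tested, of at most 0.05 by the quasi-likelihood test of edgeR. The median log2 fold change of ovary over testis was -2.18 for the members and -0.54 for all genes. Scaling by library totals in place of TMM moved these to -3.13 and -1.49. With that scaling the share of calls over all genes that were higher in ovary went from 37.6% to 15.9%, and fgfr1, log2 fold change 1.68, was no longer called (0.71). Leaving out any 1 library gave 22 or 23 calls among the members. In such bulk samples fewer cells of a type and less RNA per cell cannot be told apart.

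Among secreted ligands, the FGF9 subfamily was led by fgf20a (chromosome 10, 26731855 to 26733741, ASM223467v1), in zebrafish needed for fin regeneration. Its FPKM was 5.24, 5.64 and 4.58 in the D30 testes, and in the 6 ovaries it ran from 0.241 through a median of 0.367 to 0.484. All 3 testes were above all 6 ovaries, with a log2 fold change of ovary over testis of -2.86 (SE, the standard error, 0.28, adjusted p = 1.05e-06). Its relative fgf20b (chromosome 1, 37161186 to 37163795) had 2.93, 2.89 and 3.50 FPKM in testis, and 0, a median of 0.0423 and at most 0.209 in ovary. The testes again stood apart from every ovary, at a log2 fold change of -4.22 (SE 0.57, adjusted p = 2.17e-05), or -4.94 without WT_Fe_Ov replicate 3, the ovary with the highest value.

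The third gene of that subfamily, fgf16 (chromosome 10, 17778285 to 17782921), was near the counting limit at D30. Testes had 0.185, 0.130 and 0.143 FPKM, and ovaries 0 to 0.0274 with a median of 0.0133. These rest on 19 counts in testis and 3 in ovary, a ratio of 4.51 in favour of testis with a 95% counting interval of 1.33 to 23.8. The call (adjusted p = 0.0203) was lost with DESeq2 (adjusted p = 0.0762) and with WT_Fe_Ov alone as the ovary (adjusted p = 0.165).

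On chromosome 3, fgf19 (4729669 to 4737988), fgf4 (4760598 to 4767148) and fgf3 (4772080 to 4775344) lie in a row with no annotated gene between them, 22609 and 4931 bases apart. The ligand of ear and pharynx development fgf3 had 2.08, 2.38 and 2.01 FPKM in the D30 testes and 0.0380, a median of 0.161 and at most 0.353 in the ovaries. Its log2 fold change was -2.63 (SE 0.41, adjusted p = 7.24e-05), with no overlap of the groups. Next to it, fgf4, a ligand of early embryo and limb in the mouse, was read 37 times in the testes (0.865, 0.882 and 1.30 FPKM) and 2 times in the 6 ovaries (0 to 0.0918, median 0), a ratio of 13.2 (95% counting interval 3.40 to 113). The endocrine ligand fgf19, the outer gene of the row, was not called, with 13 counts in testis and 3 in ovary (ratio 3.08, interval 0.848 to 16.9).

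The strongest ligand by level in the D30 testis was fgf18 (chromosome 10, 15398160 to 15407000), a ligand of the FGF8 subfamily known from bone and lung. It stood at 8.95, 8.14 and 9.58 FPKM there and at 0.286, a median of 0.599 and at most 1.33 in ovary. That is a log2 fold change of -2.76 (SE 0.33, adjusted p = 6.64e-06). By fold the leading ligand was fgf23 (chromosome 23, 17686076 to 17690473), in mammals a bone hormone that lowers blood phosphate: 1.38, 0.814 and 0.546 FPKM in testis against 0 to 0.0525 (median 0.00883) in ovary. The log2 fold change was -4.74 (SE 0.65, adjusted p = 2.59e-05), and -5.45 without MT_Fe_Ov replicate 3. The ovary libraries held only 0 to 2 counts of fgf23 each. Its order against fgf20b (-4.22, SE 0.57) was not tested. The fgf23 gene overlaps another annotated gene and counting used no strand, so its reads may be shared.

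Of the remaining ligands, fgf6, known from muscle, was higher in testis (1.22, 0.988 and 1.03 against 0.0612 to 0.255 FPKM, median 0.101), with a log2 fold change of -2.22. The ligand fgf5, in mammals a regulator of the hair cycle, was barely read, with 0.211, 0.177 and 0.181 FPKM in testis and 0 to 0.0610 in ovary. Its 31 counts against 3 make a ratio of 7.36 (95% counting interval 2.29 to 37.6), and the call was lost with MT_Fe_Ov alone as the ovary (adjusted p = 0.12). Its fitted log2 fold change was -2.66, and -3.80 without MT_Fe_Ov replicate 3. Epithelial ligand fgf7 was also called, at -1.74, and its call was likewise lost there (adjusted p = 0.094). Ligands fgf1, fgf8 and fgf10 were not called at D30, with log2 fold changes of 0.65, 0.15 and -1.12, of which the first 2 turned negative with library totals (-0.31 and -0.82).

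**Figure D2:**
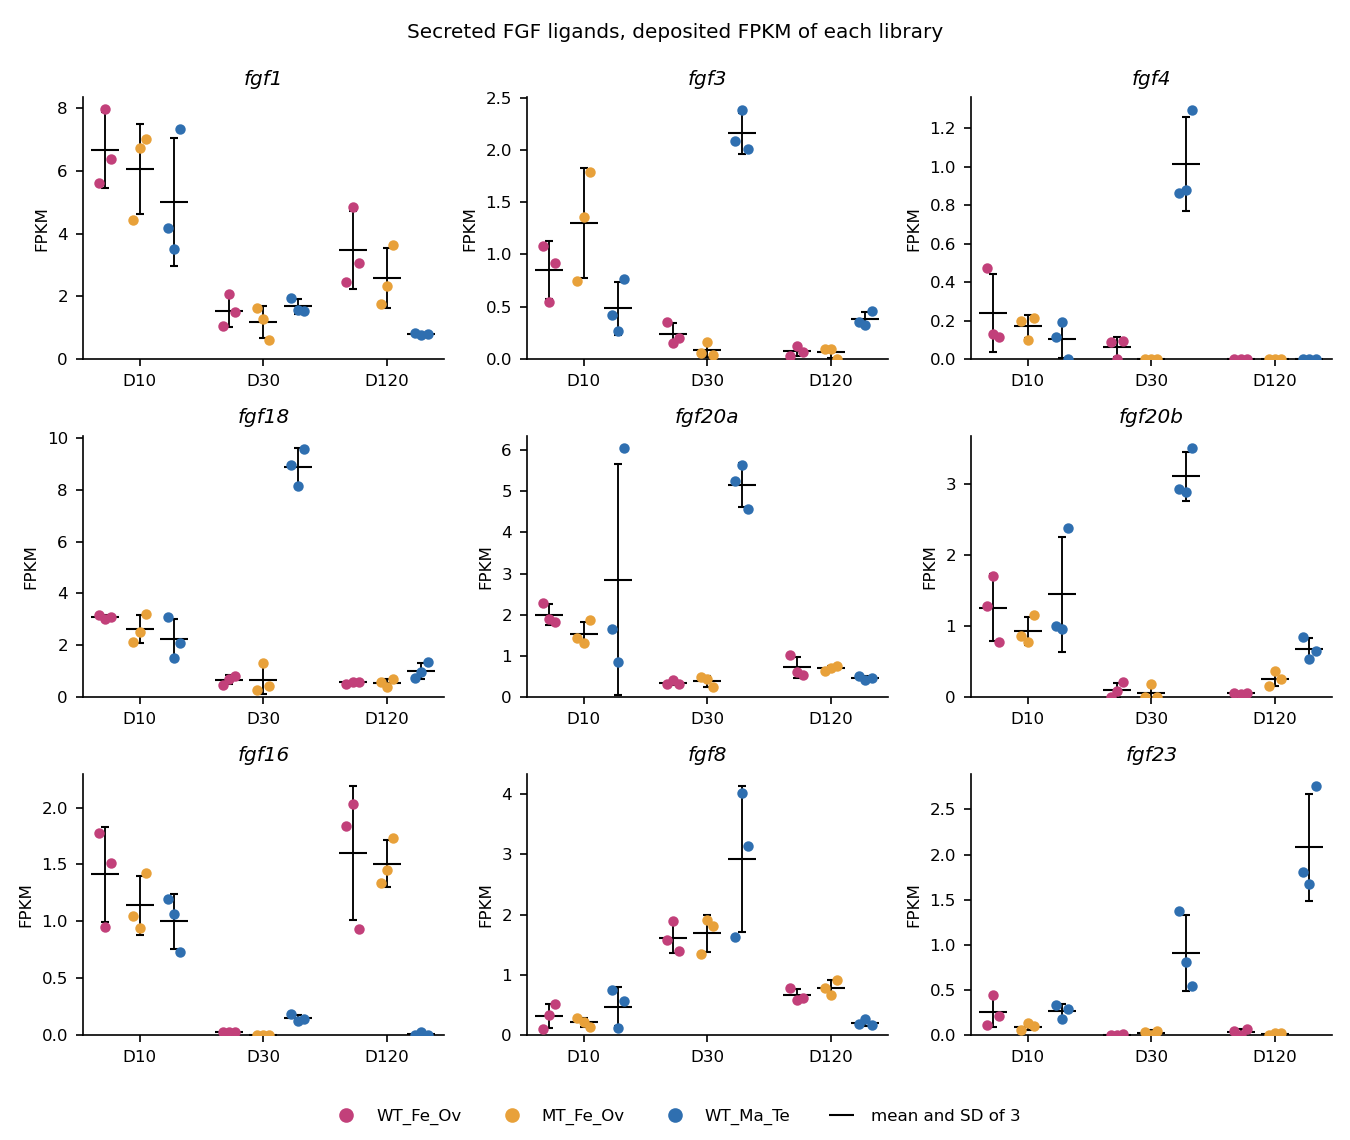
FPKM of 9 secreted ligands in every library, by stage, with WT_Fe_Ov, MT_Fe_Ov and WT_Ma_Te in separate colours and black bars for the mean and SD of 3 libraries. The D30 testes lie above all D30 ovaries for fgf3, fgf4, fgf18, fgf20a, fgf20b, fgf16 and fgf23, and the D120 ovaries above all D120 testes for fgf1, fgf8, fgf16 and fgf20a.

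The intracellular FGF11 subfamily, whose members bind voltage-gated sodium channels and are not secreted, was low in the D30 ovary. All 3 were called higher in testis, with log2 fold changes of -2.18 (fgf11), -2.02 (fgf14) and -1.75 (fgf13). Their summed level was 2.18 ± 0.126 FPKM in testis, 0.412 ± 0.0292 in WT_Fe_Ov and 0.157 ± 0.0837 in MT_Fe_Ov (SD, n = 3 each).

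The receptors did not move together. The summed level of the 3 receptor genes was 34.5 ± 2.00 FPKM in WT_Fe_Ov, 23.8 ± 7.07 in MT_Fe_Ov and 34.2 ± 1.09 in testis (SD, n = 3 each), but the genes behind the sum differed. The likeness of WT_Fe_Ov and testis held only on FPKM scaled by library totals. On TMM-rescaled FPKM fgfr1 alone was 39.9 to 42.6 in WT_Fe_Ov. In testis fgfr1, fgfr2 and fgfr3 were then at most 12.2, 4.85 and 8.24. In the testis, fgfr3 (chromosome 22, 21750612 to 21815155), a receptor known for restraining bone growth, had 12.3, 12.1 and 10.4 FPKM, beside 15.2, 18.1 and 16.5 of fgfr1. In the ovary fgfr3 ran from 0.12 through a median of 0.379 to 1.04 FPKM, so every testis was at least 10.4 FPKM and no ovary exceeded 1.04. Its log2 fold change of ovary over testis was -3.85 (SE 0.44, adjusted p = 4.91e-06).

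The receptor fgfr1 (chromosome 9, 20590029 to 20631811), the most widely used FGF receptor of mesenchyme, was the highest of the 3 in ovary, at 14.3 to 34.2 FPKM with a median of 31.1. In FPKM the ovaries overlapped the testes, because MT_Fe_Ov replicate 2 stood at 14.3. On TMM-rescaled FPKM they did not, at 18.1 to 42.6 against 10.2 to 12.2, and the log2 fold change was 1.68 (SE 0.25, adjusted p = 5.84e-05), a call that was lost with library totals. The third receptor, fgfr2 (chromosome 15, 29205481 to 29240328), which binds ligands of the FGF7 and FGF9 subfamilies, had 7.26, 4.62 and 6.03 FPKM in testis and 0.652, a median of 1.28 and at most 3.47 in ovary. It missed the size threshold at -0.92 (SE 0.39, adjusted p = 0.0479). It passed without MT_Fe_Ov replicate 2 (-1.25, adjusted p = 0.00161), without WT_Fe_Ov replicate 2 (-1.01, adjusted p = 0.0497), with library totals (-1.88), with DESeq2 (-1.07, adjusted p = 0.0214) and with DESeq2's size factors in edgeR (-1.07, adjusted p = 0.0262).

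The Sprouty and Spred genes were all higher in the D30 testis. The Sprouty gene spry4 (chromosome 14, 6762101 to 6768505) had 7.96, 7.49 and 7.41 FPKM in testis and 0.0347, a median of 0.145 and at most 0.690 in ovary. The groups were far apart, with a log2 fold change of -4.35 (SE 0.52, adjusted p = 7.94e-06), and -5.00 without MT_Fe_Ov replicate 2, which held the 0.690. Its neighbour 51602 bases along the chromosome is fgf1, which was not called at this stage.

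Spred genes encode membrane-bound inhibitors of Ras activation. The most abundant was spred2 (chromosome 15, 11707869 to 11736577), with 16.3, 17.5 and 18.4 FPKM in testis and 0.649, a median of 0.743 and at most 3.17 in ovary, a log2 fold change of -3.04 (SE 0.42, adjusted p = 2.6e-05). For spred1 (chromosome 22, 7013154 to 7047280) the values were 8.77, 6.40 and 7.69 against 0.557, a median of 0.639 and at most 1.46 FPKM, a log2 fold change of -2.39 (SE 0.28, adjusted p = 5.42e-06). The rarest was spred3 (chromosome 13, 5067893 to 5077457), with 0.493, 0.766 and 0.313 FPKM in testis and 0.0218 to 0.143 (median 0.0486) in ovary, a log2 fold change of -2.25 (SE 0.51, adjusted p = 0.00151). In each of the 3 Spreds the highest ovary was MT_Fe_Ov replicate 2 and still lay under the lowest testis.

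Of the 4 genes that share only the name, 1 was called at D30. Gene spryd4 (chromosome 7, 19294845 to 19296443) was higher in ovary, at 56.8 to 69.7 FPKM (median 59.8) against 24.4, 21.2 and 22.6, a log2 fold change of 2.41 (SE 0.13, adjusted p = 5.1e-09), though it overlaps another gene in the annotation. The other SPRY-domain gene, spryd7, had 55.2, 67.5 and 51.8 FPKM in testis and 17.3 to 20.2 in ovary, so all testes were above all ovaries. It missed the size threshold under TMM (-0.69, adjusted p = 1.63e-04) and passed it with library totals (-1.66). It also overlaps annotated genes. Genes fgfr1op, a centrosome protein, and fgfr1op2 were not called (0.83 and 0.07).

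FGF-binding proteins release ligands from the matrix. Of these fgfbp1 was called higher in testis, at 0.521, 1.17 and 0.614 FPKM against 0 to 0.0869 in ovary (log2 fold change -2.97, SE 0.64, adjusted p = 0.00101). Gene fgfbp2, 96839 bases along the same chromosome with 5 annotated genes between, was also called higher in testis (adjusted p = 0.005). It had 26 counts over the 3 testes and 0 over the 6 ovaries. Its testis mean lay under a floor of 3 counts per ovary library, so no least fold is given. No call was made for fgfbp3 (0.48, which turned to -0.48 with library totals).

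**Figure D3:**
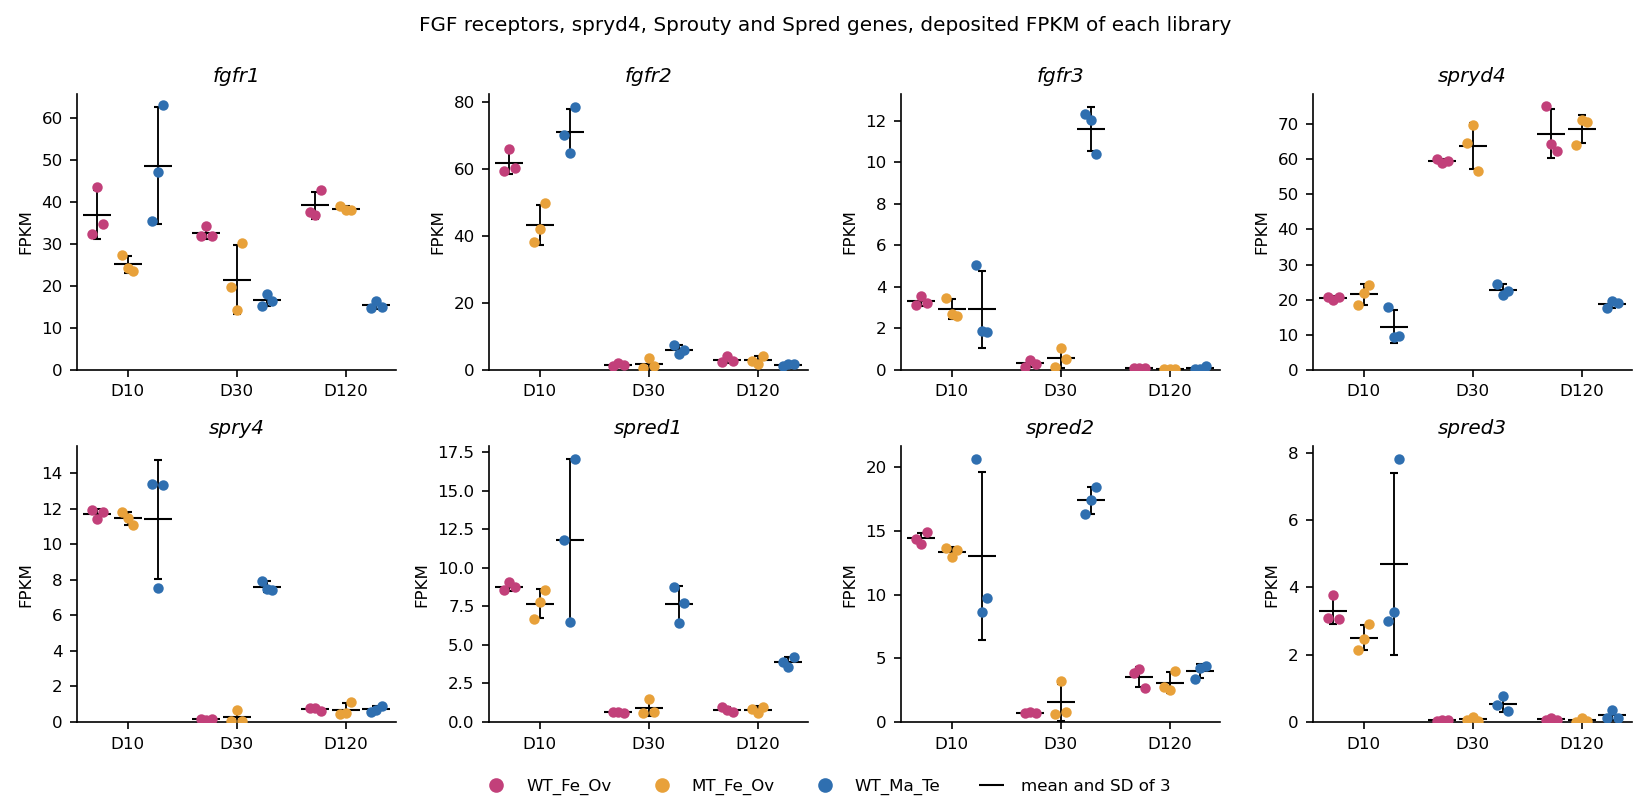
FPKM of the 3 receptors, spryd4, spry4 and the 3 Spreds in every library, by stage, with the 3 kinds of fish in separate colours and black bars for the mean and SD of 3 libraries. The D30 testes stand at 10.4 to 12.3 FPKM for fgfr3 and at 7.41 to 7.96 for spry4, where the highest D30 ovary has 1.04 and 0.690.

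At D120 the shares called were nearer to those of all genes on the ovary side and under them on the testis side. Of 30 members tested (fgf4 had no count), 8 (26.7%) were higher in ovary, where 23.8% of all 25105 genes were, and 5 (16.7%) were higher in testis, where 32.0% were. The median log2 fold change of ovary over testis was 0.34 for the members and -0.28 for all genes. With library totals these medians were 0.016 and -0.57.

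The greatest ovary excess was of fgf16, with 0.932, a median of 1.59 and at most 2.03 FPKM in the 6 ovaries and 0, 0.0313 and 0 in the testes. The ovaries held 276 counts and the testes 1, a ratio of 204 (95% counting interval 36.3 to 8090), with an adjusted p of 2.17e-07. The fitted log2 fold change was 7.10, and 8.70 without WT_Ma_Te replicate 2, which held that count. Higher in ovary too was fgf1 (chromosome 14, 6820108 to 6826475), a ligand that binds all FGF receptors, at 1.75, a median of 2.77 and at most 4.86 FPKM against 0.821, 0.756 and 0.800. Its log2 fold change was 2.24 (SE 0.33, adjusted p = 3.6e-05), and no testis reached the lowest ovary.

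Ligand fgf8 (chromosome 15, 3708561 to 3713879), a patterning signal of the embryo, had 0.592, a median of 0.724 and at most 0.914 FPKM in ovary and 0.191, 0.274 and 0.166 in testis. That is a log2 fold change of 2.09 (SE 0.37, adjusted p = 1.91e-04), without overlap. Intracellular fgf13 was called at 1.67 (SE 0.60, adjusted p = 0.0236) although its groups overlapped, with 0.232, 0.0545 and 0.0176 FPKM in testis and 0.151 to 0.356 in ovary. That call rested on single testes: it was 3.18 without WT_Ma_Te replicate 1 and was lost without replicate 2 (1.39, adjusted p = 0.0915) or replicate 3 (1.19, adjusted p = 0.0748), with library totals (1.38, adjusted p = 0.0543) and with MT_Fe_Ov alone as the ovary (1.52, adjusted p = 0.0862).

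Of the receptors at D120, fgfr1 was higher in ovary, at 36.9, a median of 38.1 and at most 42.9 FPKM against 14.8, 16.3 and 15.0 in testis. Its log2 fold change was 1.66 (SE 0.087, adjusted p = 9.15e-10). For fgfr2 it was 1.30 (SE 0.26, adjusted p = 5.5e-04), with 1.83 to 4.08 FPKM (median 2.59) against 1.09, 1.69 and 1.63, and 0.99 with library totals, which missed the size threshold. Receptor fgfr3 was close to unread in both organs, at 0.0201 to 0.0663 FPKM in ovary and 0.0461, 0.0386 and 0.169 in testis, and was not called (-0.63, adjusted p = 0.391).

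The 5 testis calls of D120 were led by fgf23, with 1.81, 1.67 and 2.76 FPKM against 0 to 0.0702 (median 0.0219) in ovary, a log2 fold change of -5.87 (SE 0.51, adjusted p = 1.88e-07). The highest of these testes, replicate 3, was the library with the high kidney markers. Next came fgf6, at 0.813, 0.609 and 0.825 against 0.0487 to 0.197 FPKM (-2.25, SE 0.35, adjusted p = 5.48e-05), and fgf3, at 0.354, 0.325 and 0.460 against 0 to 0.128 (-2.07, SE 0.56, adjusted p = 0.00462). Ligand fgf20b, at 0.847, 0.531 and 0.656 against 0.0521 to 0.364 FPKM, had -1.77 (SE 0.56, adjusted p = 0.0126), a call that was lost without WT_Ma_Te replicate 1 (-1.55, adjusted p = 0.0575) and with MT_Fe_Ov alone as the ovary (-1.02, adjusted p = 0.0939).

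Of the Sprouty and Spred genes only spred1 was called at D120. It had 3.91, 3.56 and 4.23 FPKM in testis against 0.558, a median of 0.816 and at most 0.957 in ovary. Its log2 fold change was -1.99 (SE 0.19, adjusted p = 4.01e-07), and no ovary came near a testis. Gene spry4 had 0.438 to 1.15 FPKM in ovary and 0.549 to 0.897 in testis, spred2 had 2.51 to 4.18 and 3.34 to 4.42, and spred3 had 0 to 0.111 and 0.122 to 0.358. Their log2 fold changes were 0.33, 0.06 and -1.37 (adjusted p = 0.364, 0.813 and 0.0842). Not called either was fgf20a, at 0.536 to 1.02 FPKM in ovary and 0.421 to 0.523 in testis (0.91, adjusted p = 0.0371), although every ovary was above every testis, and it passed without WT_Fe_Ov replicate 2 (1.03, adjusted p = 0.0261). Outside the signalling genes, spryd4 (2.18, SE 0.098) and fgfr1op (1.34, SE 0.13) were higher in ovary.

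**Figure D4:**
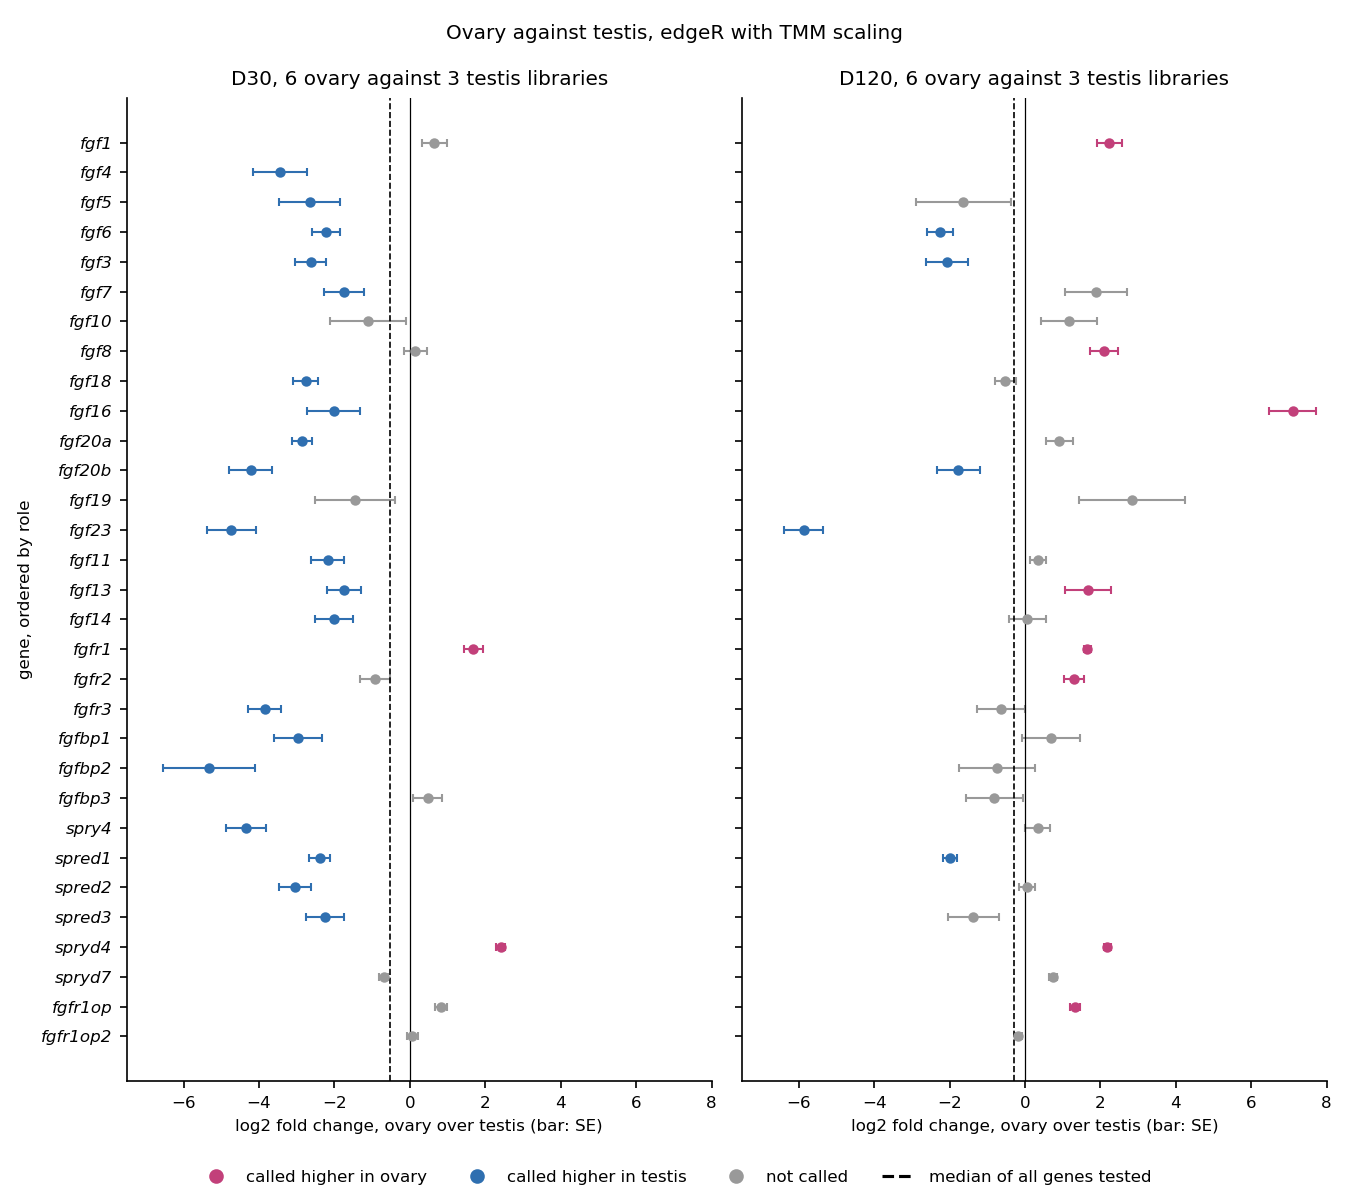
Log2 fold change of ovary over testis with its SE for the 31 genes at D30 and for the 30 tested at D120, coloured by call, with a dashed line at the median of all genes tested. At D30 20 genes are called on the testis side and 2 on the ovary side, against 5 and 8 at D120.

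Whether the ovary and testis contrast itself changed between D30 and D120 was tested as an interaction in 1 fit of all 27 libraries. The difference (D30 contrast minus D120 contrast) was called for 16 of 31 members (51.6%), all negative, where 21.4% of all 25601 genes were called negative. No member was called positive, where 17.6% of all genes were. Over all genes the positive share of calls moved from 45.0% to 23.2% with library totals. The median difference was -2.23 for members and -0.19 for all genes.

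The calls included spry4 (-4.68, SE 0.56), fgf20a (-3.78, 0.58), fgf13 (-3.65, 0.64), spred2 (-3.16, 0.44) and fgfr3 (-3.06, 0.94), here given with the SE of each log2 value. Ligand fgf16 had -10.23 (SE 0.97), with a testis excess at D30 on few counts and an ovary excess at D120. It was -11.88 without WT_Ma_Te replicate 2 of D120. This fit took WT_Fe_Ov and MT_Fe_Ov apart and averaged them, whereas the single-stage fits pooled them. Its values so need not equal the difference of the single-stage values. For fgf16, MT_Fe_Ov of D30 had 0 counts. Ligand fgf20b was called at -2.23, but its call was lost in 14 of 18 fits that left out 1 library, with values to -4.08 without MT_Fe_Ov replicate 2 of D30, and with WT_Fe_Ov alone as the ovary (-0.74, adjusted p = 0.689). The difference was not called for spred1 (-0.43), fgf3 (-0.88), fgf23 (1.17) or fgf6 (0.03), 4 of the 5 genes called higher in testis at both stages, nor for fgfr1 (-0.03) and spryd4 (0.20), which were higher in ovary at both. Without MT_Fe_Ov replicate 2 of D30 the difference of spry4 was -5.94, and without WT_Ma_Te replicate 3 of D120 that of fgfr3 was -3.95, but with MT_Fe_Ov alone as the ovary the call of fgfr3 was lost (-2.02, adjusted p = 0.295). Without WT_Ma_Te replicate 1 of D120 that of fgf13 was -5.19.

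Within each organ the stages were then compared. From D30 to D120, 18 of 31 members (58.1%) fell in testis, where 21.3% of all 25365 genes did, and only fgf23 rose (1.60, SE 0.34), where 17.8% did. Receptor fgfr3 went from 12.3, 12.1 and 10.4 FPKM to 0.0461, 0.0386 and 0.169, a log2 fold change of -6.69 (SE 0.30), or -7.60 without replicate 3 of D120. Patterning ligand fgf8 had 1.62, 4.01 and 3.14 FPKM in the D30 testes and 0.191, 0.274 and 0.166 at D120 (-3.37, SE 0.43). Intracellular fgf13 fell by 3.26 on the log2 scale, and by 4.81 without replicate 1 of D120.

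Steep testis falls of genes already described were those of fgf20a (-3.03, SE 0.29), spry4 (-3.01, 0.18), fgf18 (-2.72, 0.20) and fgf3 (-2.09, 0.31), each with log2 fold change and SE. In FPKM, fgf18 went from 8.14 to 9.58 down to 0.740 to 1.34, and fgf20a from 4.58 to 5.64 down to 0.421 to 0.523. No library of one stage overlapped the other for these genes. The falls of fgf16 and fgf14 were lost in 4 and 5 of the 6 fits that left out 1 library, and that of fgf16 went from -3.24 to -5.48 without replicate 2 of D120. Inhibitor spred1 was not called (-0.55, SE 0.13), with 6.40 to 8.77 FPKM at D30 and 3.56 to 4.23 at D120. Over all genes the rising share of calls went from 45.5% to 28.0% with library totals.

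In the ovary 4 of 31 members (12.9%) rose from D30 to D120, where 12.7% of all 24678 genes did, and 4 fell, where 10.1% did. Ligand fgf16 rose from 0 to 0.0274 FPKM to 0.932 to 2.03, or 3 to 276 counts, a ratio of 76.2 (95% counting interval 25.8 to 372). Intracellular fgf11 rose by 3.36 (SE 0.34), from 0.00818 to 0.0725 FPKM to 0.439 to 0.569, and spred2 by 1.40 (0.36). Inhibitor spry4 rose by 1.67 (SE 0.50), and by 2.38 without MT_Fe_Ov replicate 2 of D30. With MT_Fe_Ov alone as the ovary the calls of spry4 (1.25, adjusted p = 0.354) and spred2 (0.79, adjusted p = 0.334) were lost. The falls were of fgfr3 (-3.43, SE 0.57), fgfbp3 (-3.09, 0.57), fgf8 (-1.38, 0.23) and fgf3 (-1.47, 0.58), the last of which was lost in 9 of 12 fits that left out 1 library. Over all genes the rising share of calls went from 55.6% to 69.8% with library totals.

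No difference between the XY ovaries of the DMY mutant and XX ovaries passed the test in these genes. With edgeR's quasi-likelihood test no member was called between WT_Fe_Ov and MT_Fe_Ov at D10, D30 or D120 (31, 30 and 29 tested), where 0.374%, 1.68% and 0.104% of all genes were called, and DESeq2 called none either. At an unadjusted p under 0.05 there were 3, 2 and 1 members, which are fgfbp3, fgfr2 and fgfr1 at D10, fgf11 and fgfr1op at D30 and fgf20b at D120. Over all genes such a p was reached by 4638 of 24605, 4705 of 23842 and 1693 of 24122. At each stage that is a larger share than among the members. The receptor fgfr1 at D30 had 31.9, 34.2 and 31.8 FPKM in WT_Fe_Ov and 19.8, 14.3 and 30.3 in MT_Fe_Ov, without overlap in FPKM but with overlap on TMM-rescaled values, and the log2 fold change of 0.53 had an adjusted p of 0.32. For fgf20b at D120 the 3 libraries of WT_Fe_Ov held 3 counts and those of MT_Fe_Ov 15, a ratio of 4.80 (95% counting interval 1.36 to 25.9), with an adjusted p of 0.566.

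At D10 most members were read above 1 FPKM in each kind of fish, and no difference between ovary and testis passed the test. By edgeR's quasi-likelihood test 0 of 31 members were called, where 0.254% of all 24793 genes were. An unadjusted p under 0.05 was reached by 6 of 31 members and by 5412 of 24793 genes. With DESeq2 2 members were called (fgfbp1 at 1.69 and fgfbp3 at -1.20). The testis libraries of D10 were uneven: fgfbp2 had 32.8, 2.14 and 2.54 FPKM and fgf20a 1.64, 0.842 and 6.04, against 6.88 to 27.8 and 1.32 to 2.29 in the ovary libraries. Without WT_Ma_Te replicate 1, 5 members were called, which are fgfbp1 (2.54), fgfbp2 (3.13), fgf7 (1.78) and spryd4 (1.21) toward ovary and fgfbp3 (-1.37) toward testis. The share of all genes called in that fit is not given here. The gene spry4 had 11.1 to 11.9 FPKM in the D10 ovary libraries and 13.4, 7.55 and 13.3 in the testis libraries, and fgfr2 38.1 to 65.8 and 64.8 to 78.4.

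From D10 to D30 the sampled tissue changed with the age, so loss of the surrounding trunk and change in the gonad cannot be told apart. In ovary 24 of 31 members (77.4%) fell, where 41.4% of all 25090 genes did, and 3 rose, where 26.7% did. In testis 14 (45.2%) fell, where 23.7% of all 25306 genes did, and 6 (19.4%) rose, where 23.0% did. The ovary falls ran to -5.66 for spry4, -5.51 for fgfbp1 and fgfbp3 and -5.46 for fgf6, and fgfbp2 was at least 102-fold lower, against a floor of 3 counts per library. The 3 rises in ovary were of fgf8 (2.87, from 0.114 to 0.516 up to 1.35 to 1.92 FPKM), spryd4 (1.82) and fgfr1op2 (1.28).

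In testis, fgf8 (2.18), fgf3 (1.79), fgf18 (1.58), fgfr3 (1.56), fgf4 (2.65) and fgfr1op2 (1.32) rose on the log2 scale from D10 to D30. For fgf18 the values were 1.53 to 3.08 FPKM at D10 and 8.14 to 9.58 at D30, and for fgfr3 they were 1.81 to 5.05 and 10.4 to 12.3, so no libraries overlapped. The call of fgf4 was lost in 5 of 6 fits without 1 library, and those of fgf8 and fgf3 were lost without D30 replicate 2 (adjusted p = 0.0911 and 0.0638) or D30 replicate 3 (adjusted p = 0.0663 and 0.0545). That of fgfr3 was lost without D30 replicate 2 (adjusted p = 0.0505) and was 2.22 without D10 replicate 1. The largest falls in testis were of fgfbp3 (-6.95), fgfbp2 (-6.10, or -3.68 without D10 replicate 1), fgfr2 (-3.99) and fgf6 (-3.54). Receptor fgfr2 went from 64.8 to 78.4 FPKM in the D10 testis libraries down to 4.62 to 7.26 at D30. Over all genes the rising share of calls in testis went from 49.2% to 61.5% with library totals.

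The genes around the family were taken from a list made by role, of which 46 were found by symbol. These were 11 of 21 co-receptors and matrix partners, 13 of 13 adaptors and 11 of 14 genes from Ras to the MAPK kinases. Also found were 5 of 6 feedback inhibitors and 6 of 9 MAPK targets. The listed genes not found were not analysed. At D30 13 of the 46 were higher in ovary and 13 in testis, where 22.0% and 36.5% of all genes were, and with library totals 2 and 25. The median log2 fold change was -0.10 for the list and -0.54 for all genes. Of the 11 genes from Ras to the MAPK kinases 5 were higher in ovary and 0 in testis. These 11 include the Ras regulators nf1 and rasa1. Of the 6 MAPK targets 1 was higher in ovary and 4 in testis, and of the 5 feedback inhibitors 1 and 3. With library totals only 2 of all 46 were higher in ovary, so the 5 ovary calls did not all hold. The calls by role thus depended on the scaling. Under TMM the median log2 fold change was 0.72 from Ras to the MAPK kinases, -2.16 in MAPK targets and -2.54 in feedback inhibitors. With library totals the median moved to -1.07 for the whole list and to -1.49 for all genes. Medians by role with library totals are not given here. Farthest toward testis among those named were dusp4 (-5.03), a phosphatase that inactivates MAP kinases, rasal1 (-4.62), a Ras inhibitor, and cblb (-4.24), a ubiquitin ligase of receptor turnover. In ovary il17rd, a membrane inhibitor of FGF receptors known as Sef, stood at 29.7 ± 3.01 FPKM (SD, n = 6) against 3.42 ± 0.406 (SD, n = 3) in testis, a log2 fold change of 4.09. Also higher there were the cell cycle gene ccnd1 (2.95) and the Ras activator sos2 (1.82, and 0.85, not called, with library totals).

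At D120 11 of the 46 were higher in ovary and 12 in testis, where 23.8% and 32.0% of all genes were, and with library totals 10 and 16. The median was 0.23 for the list and -0.28 for all genes. Gene il17rd was again high in ovary (4.38), with flrt3 (3.37), a membrane partner of FGF receptors, and ccnd1 (3.34). Toward testis the transcription factor etv1 (-4.22), cblb (-3.87) and the adaptor shc2 (-3.76) lay farthest. Between WT_Fe_Ov and MT_Fe_Ov the only list gene called was the heparan sulfate carrier sdc3 at D30 (-1.75, adjusted p = 0.00621), higher in MT_Fe_Ov. At D10 none of the 46 was called between ovary and testis by edgeR.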

How the data were processed

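Poly(A) RNA-seq libraries of medaka gonads were used, 27 in 9 groups of 3, and assigned to groups and replicate numbers by their labels. Per the study's methods, the authors used fastp for trimming, STAR for alignment to ASM223467v1 and featureCounts, without strand, for counting. The deposited counts are raw counts per gene. The deposited FPKM come from DESeq2's fpkm function, run by the authors, and are scaled by library totals. The small RNA libraries of the study were not used here.

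Genes with at least 1 count over the libraries compared were tested in edgeR 4.0.16 under R 4.3.3 (with limma 3.58.1), using TMM factors and its quasi-likelihood test. Calls needed a Benjamini-Hochberg adjusted p, over all genes tested, of at most 0.05 and a log2 fold change of size 1 or more. Each standard error is the size of the log2 fold change divided by the square root of F. A fold change is on the TMM scale, whereas FPKM is not. Ratios of fewer than 4 counts carry exact 95% intervals, which cover counting error only. Labels call the replicates biological, but give no culture or animal, so p-values measure the spread between these libraries.

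The members and the gene lists were chosen with earlier results of these data known. The genes named are fgf3, fgf5, fgf20a, fgf20b, every receptor, Sprouty and Spred, and for each comparison the called members whose higher group averaged 50 counts or more and, between ovary and testis, without overlap, up to 8 in each direction between ovary and testis and up to 4 between stages. Pathway genes were named by the same rule, up to 3 in each direction. Other members in the text (such as fgf4, fgf16 at D30, fgf19, fgfbp2) were chosen after their values were seen. Alternatives were DESeq2 1.42.0, DESeq2 size factors, library totals, filterByExpr, an adjusted p of at most 0.01, a replicate block, 1 fit of all 27 libraries, each ovary group alone, and leaving out each library. The fitting code was also run on simulated counts with known changes. That covered ovary against testis at D10, WT_Fe_Ov against MT_Fe_Ov at D30 and the difference between D30 and D120. Ovary against testis at D30 or D120 was not simulated. The outcome is not given here, and no result above rests on it. Figures were drawn with matplotlib 3.10.9 in Python 3.11.15.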

Additional observations from a re-analysis of the deposited data

Results flagged for a closer look

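Among the 90 sets of 6 ovary libraries (each member at each stage, where values were present), 8 had a highest library whose gap to the next, over the whole range, passed Dixon's 95% critical value. Some such sets arise by chance. How many was not worked out, since the sets share libraries and several flagged values rest on 2 to 4 counts. Library MT_Fe_Ov replicate 2 of D30 was the far one for spry4 (0.69 FPKM, next 0.174), spred2 (3.17, next 0.78), spred1 (1.46, next 0.675) and spred3 (0.143, next 0.0674, from 3 counts). That library had 160.2 FPKM of testis somatic markers, against 45.3 and 53.8 in the other 2 of its group, and 8.73 of ovary somatic markers against 2.31 and 4.01. The part of these cells in the 4 values was not tested. Library MT_Fe_Ov replicate 3 of D30 was the far one for fgf6 (0.255 FPKM, next 0.117) and fgf5 (0.061, next 0.0208, from 2 counts). Library WT_Fe_Ov replicate 1 of D10 was far for fgf4 (0.472 FPKM, next 0.211, from 4 counts), and replicate 3 of D120 for fgfr1 (42.9 FPKM, next 39.0).

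The ovary and testis contrast differed between D30 and D120 for 16 members by the interaction test, on the log2 scale (D30 minus D120). These were fgf16 (-10.23), fgfbp1 (-5.06), spry4 (-4.68), fgf20a (-3.78), fgf13 (-3.65), fgf7 (-3.47), spred2 (-3.16), fgfr3 (-3.06), fgf11 (-2.90), fgf14 (-2.34), fgf18 (-2.26), fgfr2 (-2.25), fgf20b (-2.23), fgf8 (-1.96), fgf1 (-1.62) and spryd7 (-1.47). In all 16 the D30 contrast lay further toward testis than the D120 contrast. Besides fgf20b and fgfr3, described above, 1 ovary group alone ended further calls. With WT_Fe_Ov alone those of fgfbp1 (-2.90, adjusted p = 0.0944) and fgf14 (-1.77, adjusted p = 0.11) were lost. With MT_Fe_Ov alone that of fgf7 was lost (-2.88, adjusted p = 0.131). Gene fgfbp1 had 0 to 2 counts in each D30 ovary library and in each D120 library.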

How the results depend on the processing

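No result changed direction under any alternative for a called member. Counts of called members were 22 between ovary and testis at D30 (18 to 23 under other settings, 22 to 23 without 1 library), 13 at D120 (11 to 14, 12 to 14) and 16 for the difference between the stages (13 to 18, 15 to 16). Between WT_Fe_Ov and MT_Fe_Ov every alternative gave 0. For ovary against testis at D10, 0 calls became 2 with DESeq2, 2 in 1 fit of all 27 libraries and 0 to 5 without 1 library. For ovary at D120 against D30, 8 became 5 with filterByExpr and 5 with MT_Fe_Ov alone. Over all comparisons, 113 of the 125 calls of single members were still tested after filterByExpr, and all 113 held. The calls missing there were of genes that its filter removed. The reason for the count with MT_Fe_Ov alone was not tested. For testis at D30 against D10, 20 became 13 at the stricter adjusted p of 0.01, and 14 to 21 without 1 library. Of 125 calls of single members, 6 were lost with DESeq2, which gave fgfbp2 in testis at D30 against D10 no adjusted p, 5 with library totals and 18 at an adjusted p of at most 0.01.

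Replicate numbers were shared between groups but did not pair the libraries: of 108 same-numbered pairs, 9 had a correlation of deviations over 0.1 (range -0.171 to 0.208, over 22268 genes). With the replicate block, 23 members were called at D30 between ovary and testis, 13 at D120, 15 for the difference and 0 at D10. It made fgfr2 at D30 a call (-1.14, adjusted p = 0.0201) and ended that of fgf20b for the difference (-2.23, adjusted p = 0.0511), and it ended 7 of the 125 calls in all.

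Depth limits fgf4, fgf5, fgf16 at D30, fgf19, fgfbp2 and, at D120, fgfbp1 and fgf7, which had few counts. It also limits the folds of fgf23, with at most 3 counts in any ovary library of D30 or D120. Scaling limits statements at D30 on fgfr1, fgfr2, spryd7, the summed receptor level and the number of members at 1 FPKM. It also limits the calls by role in the pathway list.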
